A study of Mus musculus with 9 samples.

Results

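Interferon-stimulated genes were examined in HPC7, a mouse line of blood progenitors, with and without forced expression of the transcription factor Snai1. The genes were 38 mouse genes commonly counted among the targets of type I interferon, out of 27179 gene identifiers in the count table. They were chosen by name, with earlier results of these data known. All 38 were in the table, and 29 of them had enough reads to be tested. RNA was sequenced from 3 groups of 3 libraries. The first group carried a mutant Snai1 in which alanine replaces the phenylalanine at position 5, a change that weakens binding of Snai1 to the histone demethylase Lsd1. The second group carried wild-type Snai1. The third carried the empty vector. Every group had received an MSCV retrovirus with a GFP reporter, had been sorted for GFP 1 week after transduction, and had grown in RPMI with 10% FCS, 0.05 mM 2-mercaptoethanol and mouse stem cell factor (100 ng/ml). The cells are a cultured line, and both Snai1 proteins came from the vector and not from the cells' own gene. Nothing in the labels says whether the replicates were separate transductions, so the p-values speak of variation among the 9 libraries alone, and part or all of it may be technical.

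Interferons are secreted proteins that warn cells of viral infection. On binding their receptors they activate the kinases Jak1 and Tyk2, which phosphorylate Stat proteins such as Stat2. Together with Irf9 these bind interferon-stimulated response elements and turn on genes that sense, tag, degrade or trap viral RNA and particles. Blood stem and progenitor cells are known to carry a basal level of some of these genes without infection, members of the Ifitm family among them. Snai1 is a zinc finger repressor that binds the E-box CACCTG and recruits Lsd1, the product of Kdm1a, through its first residues.

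The promoters of a few members show the sequence through which this pathway is known to act. The core of the response element is GAAA followed by any 2 bases and GAAA again. It was searched on both strands in the 250 bases before each transcript start in the RefSeq promoter table on GRCm38.p6. It was found in 11 of the 29 members with a promoter in the RefSeq table (37.9%), against 3.46% of 27025 genes. The E-box letters CACCTG, searched the same way, were in 7 of those 29 members (24.1%), against 19.4% of genes. Of the members higher with wild-type Snai1, only the 4 shown held the core in a searched window. The display therefore does not show how often the core goes with a rise. The stretches below belong to these 4 and to 2 members that were lower. Each runs from base -130 to base -41 before the start, 5′ to 3′ on the gene's strand, and capitals mark the core or its complement, TTTC, any 2 bases and TTTC.
Ifit1, chr19:34640759-34640848, plus strand: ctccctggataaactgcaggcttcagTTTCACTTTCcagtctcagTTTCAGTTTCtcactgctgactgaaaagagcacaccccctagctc
Isg15, chr4:156200859-156200948, minus strand: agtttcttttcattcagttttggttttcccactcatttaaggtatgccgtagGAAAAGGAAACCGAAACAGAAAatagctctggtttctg
Oas3, chr5:120777700-120777789, minus strand: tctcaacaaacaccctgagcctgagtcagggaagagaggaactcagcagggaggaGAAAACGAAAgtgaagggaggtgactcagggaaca
Rsad2, chr12:26456493-26456582, minus strand: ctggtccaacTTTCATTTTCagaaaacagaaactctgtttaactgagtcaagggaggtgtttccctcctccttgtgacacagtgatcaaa
Ifit2, chr19:34550564-34550653, plus strand: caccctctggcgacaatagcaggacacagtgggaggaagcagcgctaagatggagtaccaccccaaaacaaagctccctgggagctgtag
Ifitm1, chr7:140967946-140968035, plus strand: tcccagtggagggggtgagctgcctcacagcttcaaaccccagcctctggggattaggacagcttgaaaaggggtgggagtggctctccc

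Ifit1 held the element in 2 places of this stretch and Isg15 in 3 overlapping ones, and the Ifit2 and Ifitm1 stretches held none. Of the 13 members higher with wild-type Snai1, these 4 held it, 6 did not (Xaf1, Cmpk2, Eif2ak2, Ddx58, Oasl2 and Ifitm3), and 3 had no window in the table (Mx1, Mx2 and Dhx58). Besides these, the core was in the windows of Ifit3, Ifit3b, Oas1a, Oas1g, Ifitm2, Bst2 and Stat2. The E-box letters lay before Oasl2, Samd9l, Isg20, Bst2, Trim25, Cmpk2 and Dtx3l. A match is a run of letters and not a measured binding site, and a window without them says only that these letters are not in it. The Ifit2 and Ifitm1 stretches lie past the outermost annotated starts of these genes, at 34550550 and 140967429. The full 250 bases before those outer starts were not searched.

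Levels are given as counts-per-million (CPM) on library sizes scaled by TMM, a method that lines up the bulk of genes between libraries. Total counts ran from 18332451 to 20860314 per library, and 3 counts, taken as the floor of detection, made 0.144 to 0.161 CPM. Snai1 was at 471, 415 and 493 CPM in mutant libraries and at 425, 488 and 562 CPM in wild-type libraries, against 1.06, 0.722 and 0.698 CPM in empty vector libraries, and includes the vector's transcript. Kdm1a lay between 193 and 208 CPM in all 9 libraries. All 12 progenitor markers were detected above the filter, with Kit at 3241 to 3722 CPM. A pair of libraries stood apart from their groups. In empty vector replicate 1, 3.62% of the counts fell on 1 identifier without a RefSeq symbol, while the most abundant gene of any other library took at most 1.02%. This library differed from the other 2 empty vector libraries by a chi-square of 71.6 and 69.7 per gene, against 4.90 between those 2. That chi-square is averaged over tested genes with the identifier included, and the identifier's part in it was not computed. Empty vector replicate 1 was the highest of the 9 libraries in 8.8% of tested genes, against 6.22% and 12.5% for empty vector replicates 2 and 3. Wild-type replicate 1 differed from the other 2 wild-type libraries by 46.3 and 54.8 per gene, against 5.27 between those 2. Since it stood apart in the members too, results are given with and without it.

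In empty vector cells the members spanned a wide range, from 716 CPM for Ifitm1 to 0. Per length, the levels were highest for the small membrane proteins Ifitm1, Ifitm2 and Ifitm3, which hinder the entry of enveloped viruses, at 853, 725 and 249 CPM per kilobase. Bst2, which tethers budding virions, followed at 36.3 CPM per kilobase, and the RNA-activated kinase Eif2ak2 at 27.4 CPM per kilobase. At the other end, Oas1g and Ifi44 had 0 counts in all 3 empty vector libraries. The 9 members not tested for low counts were Ifit3, Ifit3b, Zbp1, Oas1a, Oas1g, Oas2, Oasl1, Ifi44 and Rtp4. A further 4, Ifit1, Oas3, Oasl2 and Mx1, passed the filter only because of their reads in wild-type libraries, so the counts below are also given for the 25 that passed without them.

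With wild-type Snai1 against empty vector, 13 of the 29 tested members were higher and 3 were lower at an adjusted p under 0.05, and 13 did not pass. Of all 12484 tested genes, 25.2% were higher and 24.3% were lower in the same comparison. Among the 25 members that passed the filter without wild-type reads, 9 were higher and 3 lower. The median log2 fold change was 0.47 over the 29 and 0.33 over the 25, beside -0.00 over all tested genes. The rise took in Ifit1, Oas3, Oasl2 and Mx1, which passed the filter only through wild-type reads. It also took in 3 sensors of RNA, Isg15 and Mx2, while Ifit2, Ifih1 and Ifitm1 fell. In bulk RNA, a change in the share of cells of a type and a change in RNA per cell cannot be told apart.

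**Figure D1:**
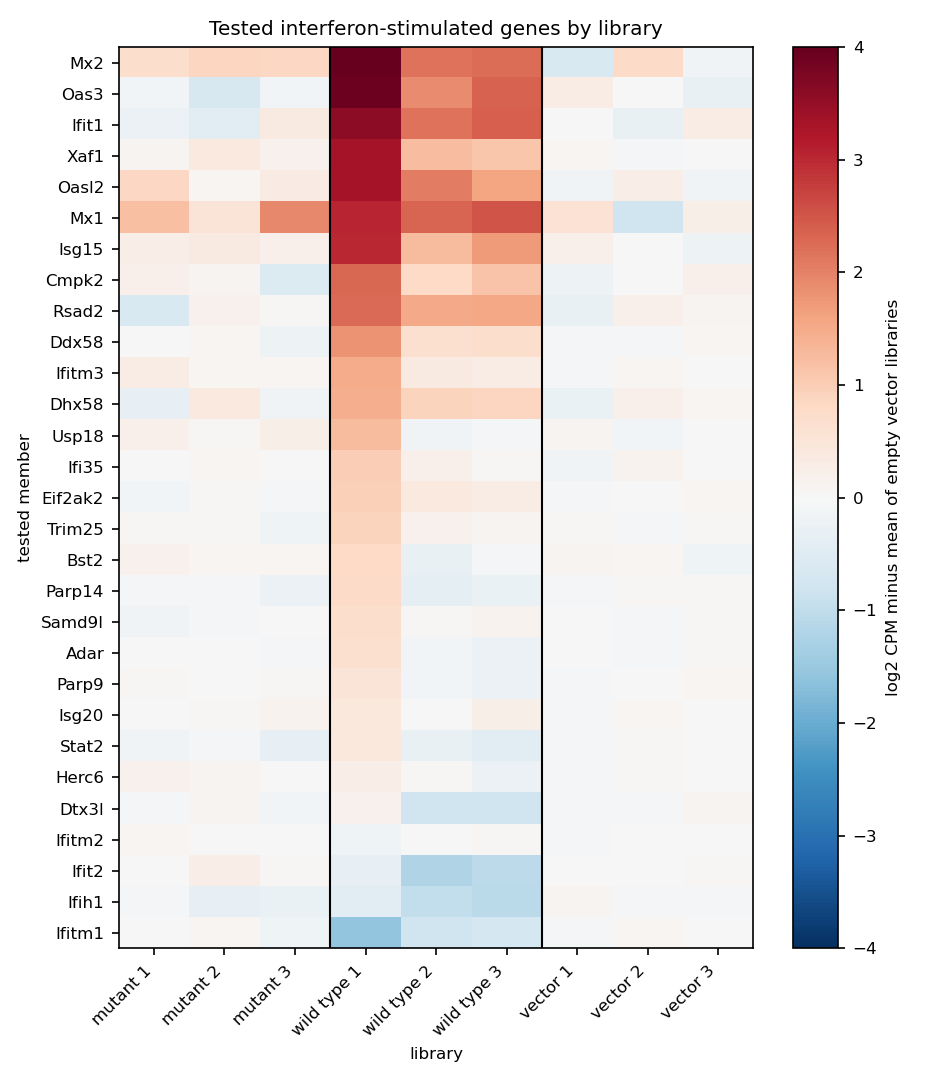
Heat map of the 29 tested members (down the page) in each of the 9 libraries (across), grouped as mutant Snai1, wild-type Snai1 and empty vector. Colour gives log2 CPM minus the mean of the empty vector libraries, red above and blue below, with the colour scale ending at 4 on either side. Wild-type replicate 1 is the darkest red column, and Ifit2, Ifih1 and Ifitm1 are blue in all 3 wild-type libraries.

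The IFIT proteins bind viral RNA ends and block their translation, and their genes sit side by side on chromosome 19. Ifit1 (34640889 to 34650009) was at 0.306, 0.250 and 0.511 CPM in mutant libraries and at 5.63, 2.06 and 2.41 CPM in wild-type libraries, against 0.372, 0.289 and 0.483 CPM in empty vector libraries. Every wild-type library was above the other 6, and wild-type replicate 1 was well above its fellows. Ifit1 passed the filter only through wild-type reads. Its log2 fold change with wild-type Snai1 against empty vector was 3.13 (adjusted p = 3.51e-04, SE 0.47), and 2.54 without wild-type replicate 1. Ifit2 (34550550 to 34576534) went the other way. It was at 25.8, 31.7 and 27.2 CPM in mutant libraries and at 20.7, 11.4 and 12.7 CPM in wild-type libraries, against 25.9, 25.8 and 27.3 CPM in empty vector libraries. The fall of Ifit2 on the log2 scale was -0.82 (adjusted p = 0.00594, SE 0.19), and -1.13 without wild-type replicate 1, the wild-type library closest to the controls. Ifit3 stayed near the detection limit, with 6, 2 and 7 counts in mutant libraries and 16, 7 and 3 counts in wild-type libraries, against 2, 7 and 6 counts in empty vector libraries. Ifit3b had at most 3 counts in any library and is nearly identical to Ifit3, so reads of the pair may be split between them. Ifit1 and Ifit3b also overlap Ifit1bl1 in the annotation.

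The sensors moved in both directions. Ddx58 encodes RIG-I, which detects viral RNA with a 5′ triphosphate. It was at 42.8, 45.1 and 36.7 CPM in mutant libraries and at 147, 66.5 and 68.8 CPM in wild-type libraries, against 41.5, 41.2 and 45.1 CPM in empty vector libraries. Ddx58 rose by 1.14 on the log2 scale with wild-type Snai1 (adjusted p = 0.0101, SE 0.28), and by 0.67 without wild-type replicate 1. Ifih1 encodes MDA5, the related sensor of long double-stranded RNA, and fell in the same cells. Its levels were 12.4, 10.1 and 10.6 CPM in mutant libraries and 9.41, 6.31 and 5.97 CPM in wild-type libraries, against 13.8, 12.1 and 12.3 CPM in empty vector libraries. For Ifih1 the log2 fold change was -0.82 (adjusted p = 0.00249, SE 0.17), and -1.05 without wild-type replicate 1. Dhx58 encodes LGP2, another member of this helicase family, which regulates both. It was at 2.04, 3.44 and 2.35 CPM in mutant libraries and at 7.22, 4.94 and 4.81 CPM in wild-type libraries, against 2.13, 2.99 and 2.74 CPM in empty vector libraries, a log2 fold change of 1.11 (adjusted p = 0.00341, SE 0.24). Eif2ak2, the kinase PKR that stops translation on binding double-stranded RNA, was at 110, 122 and 112 CPM in mutant libraries and at 228, 155 and 145 CPM in wild-type libraries, against 113, 118 and 125 CPM in empty vector libraries. Its rise was modest, at 0.57 (adjusted p = 0.0103, SE 0.15), and 0.34 without wild-type replicate 1. Zbp1, a sensor of left-handed nucleic acid, had at most 3 counts in any library. The sources used here do not say whether the counting used strand, and Ifih1, Dhx58 and Eif2ak2 each overlap an annotated neighbour of predicted type.

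The oligoadenylate synthetases make 2-5A, the messenger that activates RNase L. Both tested genes of this family, Oas3 and Oasl2, passed the filter only through wild-type reads. Oas3 was at 0.255, 0.150 and 0.256 CPM in mutant libraries and at 5.83, 1.32 and 1.91 CPM in wild-type libraries, against 0.372, 0.289 and 0.215 CPM in empty vector libraries. The 3 wild-type values were above all others, and the log2 fold change of Oas3 was 3.34 (adjusted p = 0.00165, SE 0.63), or 2.44 without wild-type replicate 1. Oasl2, a synthetase-like protein, was at 0.408, 0.200 and 0.256 CPM in mutant libraries and at 2.74, 1.08 and 0.752 CPM in wild-type libraries, against 0.160, 0.241 and 0.161 CPM in empty vector libraries. Oasl2 had a log2 fold change of 2.97 (adjusted p = 0.00189, SE 0.59), or 2.24 without wild-type replicate 1. Wild-type replicate 1 stood out in a pair of untested members of this family. Oas1a had 0, 1 and 0 counts in mutant libraries and 38, 1 and 3 counts in wild-type libraries, against 0, 1 and 1 counts in empty vector libraries. Oas2 had 4, 1 and 2 counts in mutant libraries and 39, 1 and 5 counts in wild-type libraries, against 0, 1 and 1 counts in empty vector libraries. For both genes most reads of the experiment came from that 1 library. Oas1g, a near copy of Oas1a, had at most 3 counts in any library, and Oasl1 had 2, 5 and 3 counts in mutant libraries and 11, 11 and 5 counts in wild-type libraries, against 1, 5 and 4 counts in empty vector libraries.

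Isg15 is a ubiquitin-like protein that is attached to other proteins, and Herc6 (its ligase in the mouse), Trim25 and Usp18 (which removes it) act around it. Isg15 was at 3.36, 3.54 and 3.22 CPM in mutant libraries and at 23.3, 6.85 and 9.28 CPM in wild-type libraries, against 3.19, 2.75 and 2.41 CPM in empty vector libraries. The log2 fold change of Isg15 was 2.24 (adjusted p = 0.00197, SE 0.42), and 1.53 (SE 0.17) without wild-type replicate 1. Usp18, which also dampens signalling at the interferon receptor, was at 38.1, 34.2 and 38.9 CPM in mutant libraries and at 79.2, 29.8 and 31.0 CPM in wild-type libraries, against 35.6, 30.5 and 33.2 CPM in empty vector libraries. Only wild-type replicate 1 lay above the controls. Usp18 did not pass the test (log2 fold change 0.50, adjusted p = 0.273), and its log2 fold change was -0.12 without that library. Trim25 had a log2 fold change of 0.44 (95% interval 0.02 to 0.85, adjusted p = 0.0765) and Herc6 one of 0.04 (-0.23 to 0.30, adjusted p = 0.824). Of these 4 genes, only Isg15 passed the test, beside 25.2% of all tested genes that were higher and 24.3% that were lower.

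Among the antiviral enzymes, 4 of 7 rose and none fell, beside 25.2% and 24.3% of all tested genes. Mx1, one of the 4, passed the filter only through wild-type reads, and Adar was lower without wild-type replicate 1. Mx1 and Mx2 encode dynamin-like GTPases that trap viral nucleocapsids. Mx2 was at 1.32, 1.50 and 1.48 CPM in mutant libraries and at 13.9, 3.92 and 4.06 CPM in wild-type libraries, against 0.479, 1.40 and 0.698 CPM in empty vector libraries. The rise of Mx2 was 3.06 on the log2 scale (adjusted p = 0.00200, SE 0.58), and 2.18 without wild-type replicate 1. Mx1 was low throughout, at 0.306, 0.150 and 0.562 CPM in mutant libraries and 1.34, 0.783 and 0.903 CPM in wild-type libraries, against 0.160, 0 and 0.107 CPM in empty vector libraries. Its log2 fold change of 3.46 (adjusted p = 0.00130, SE 0.64) rests on a few control reads and ran from 2.86 to 4.14 as single libraries were left out. Rsad2, known as viperin, makes a chain-terminating nucleotide, and Cmpk2, the neighbouring gene on chromosome 12, supplies nucleotides for it. Rsad2 was at 1.89, 3.29 and 3.02 CPM in mutant libraries and at 14.4, 8.61 and 8.78 CPM in wild-type libraries, against 2.34, 3.37 and 3.17 CPM in empty vector libraries. It had the smallest adjusted p of the members (log2 fold change 1.84, adjusted p = 2.59e-04, SE 0.26), and 1.55 remained without wild-type replicate 1. Cmpk2 was at 2.19, 2.05 and 1.28 CPM in mutant libraries and at 9.61, 3.38 and 4.31 CPM in wild-type libraries, against 1.65, 1.88 and 2.20 CPM in empty vector libraries, a log2 fold change of 1.59 (adjusted p = 0.00672, SE 0.39), or 1.01 without wild-type replicate 1. The editing enzyme Adar, the exonuclease Isg20 and the growth-restricting Samd9l did not pass, with log2 fold changes of 0.15, 0.23 and 0.33.

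The 3 Ifitm genes, neighbours on chromosome 7, each behaved differently. Ifitm1 (140967429 to 140969827) was at 702, 751 and 640 CPM in mutant libraries and at 240, 413 and 438 CPM in wild-type libraries, against 696, 752 and 701 CPM in empty vector libraries. All 3 wild-type libraries lay far below the other 6, and Ifitm1 fell by 0.98 on the log2 scale (adjusted p = 0.00248, SE 0.19), with -0.75 without wild-type replicate 1. Ifitm2 (140954837 to 140959686) was at 478, 461 and 463 CPM in mutant libraries and at 404, 450 and 468 CPM in wild-type libraries, against 440, 463 and 461 CPM in empty vector libraries. Those groups overlapped, and the 95% interval of the log2 fold change of Ifitm2 ran from -0.18 to 0.09. Ifitm3 (141009590 to 141010744) was at 196, 171 and 169 CPM in mutant libraries and at 448, 205 and 197 CPM in wild-type libraries, against 153, 168 and 162 CPM in empty vector libraries. Ifitm3 passed narrowly (log2 fold change 0.81, adjusted p = 0.0488, SE 0.29), its call was lost under 10 of the alternatives tried, those without any 1 empty vector or mutant library among them. Over all alternatives its adjusted p ran from 3.64e-04 to 0.117, and its log2 fold change was 0.32 without wild-type replicate 1. The order of the 3 genes by level per length also changed: with wild-type Snai1 the means were 433, 703 and 437 CPM per kilobase for Ifitm1, Ifitm2 and Ifitm3, against 853, 725 and 249 CPM per kilobase with empty vector. Ifitm3 was above Ifitm1 per length in wild-type replicate 1 alone, and below it in the other 2 wild-type libraries. Bst2 did not pass (log2 fold change 0.23, adjusted p = 0.469). Reads shared by these similar genes may have been split or dropped in the counting.

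**Figure D2:**
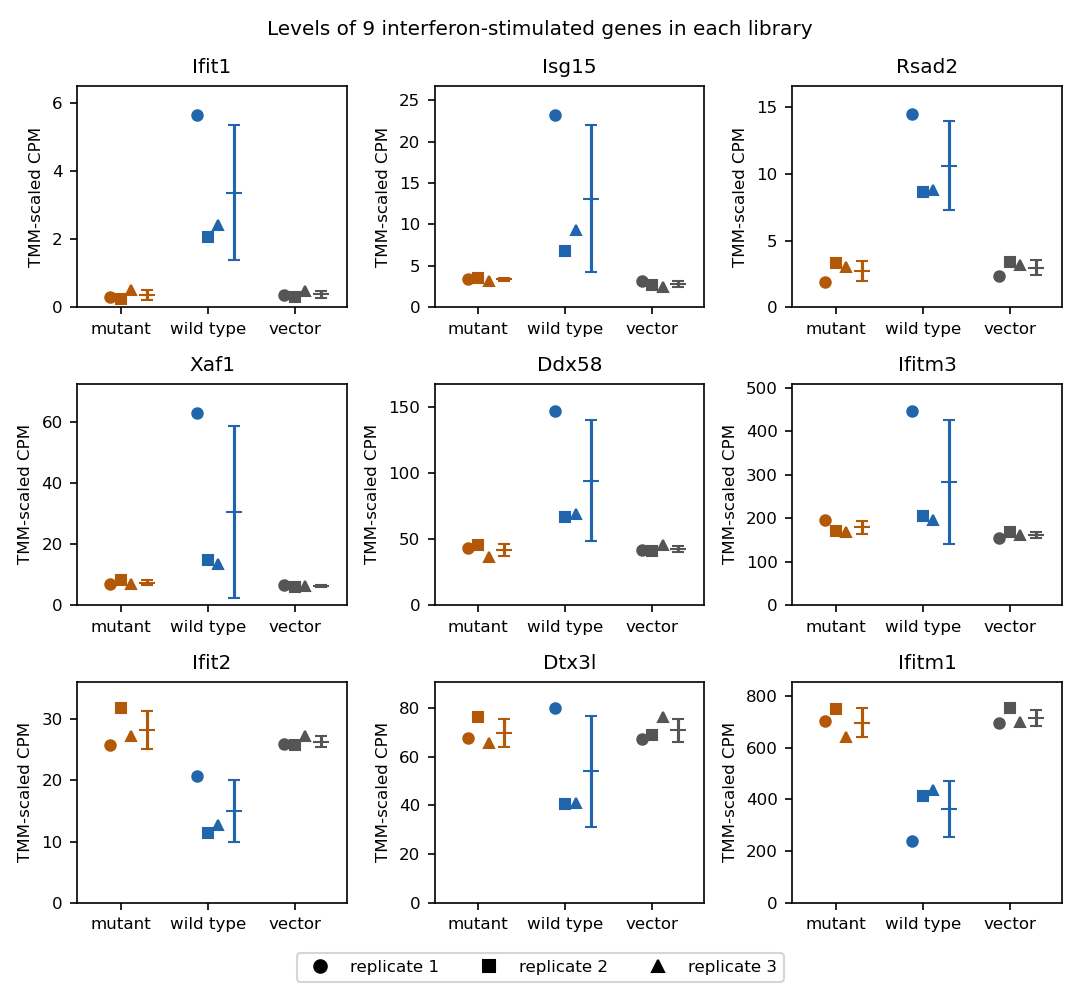
TMM-scaled CPM (vertical axes, each from 0) of 9 members in mutant Snai1, wild-type Snai1 and empty vector libraries; symbols are the 3 replicates and the bar beside them is the mean with 1 SD (n = 3). In the panels of Ifit1, Isg15, Rsad2, Xaf1 and Ddx58 all 3 wild-type libraries lie above the other 6 with replicate 1 highest. Of all tested genes, 28.1% had all 3 wild-type libraries above all 3 empty vector libraries, and 27.5% above all 3 mutant libraries. Ifit1 passed the filter only through wild-type reads. In the Dtx3l panel replicate 1, at 80.2 CPM, lies apart from the other 2 wild-type libraries at 40.8 and 41.0 CPM.

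Of the 6 tested signalling partners and effectors in the last group, only Xaf1 was called. Of all tested genes 25.2% were higher and 24.3% lower. Xaf1, a zinc finger protein linked to cell death, was at 6.73, 8.23 and 6.95 CPM in mutant libraries and at 62.8, 14.6 and 13.5 CPM in wild-type libraries, against 6.59, 5.92 and 6.12 CPM in empty vector libraries. Its log2 fold change was 2.29 (adjusted p = 0.0133, SE 0.60), and 1.18 (SE 0.12) without wild-type replicate 1, the library that held most of its signal. Stat2, a transcription factor of the interferon response, was at 74.2, 79.9 and 66.3 CPM in mutant libraries and at 110, 67.2 and 60.8 CPM in wild-type libraries, against 78.3, 85.8 and 83.9 CPM in empty vector libraries. Replicate 1 was thus above the controls and the other 2 wild-type libraries below them. The same split held for Dtx3l, a ubiquitin ligase that works with Parp9, at 67.8, 76.2 and 65.5 CPM in mutant libraries and 80.2, 40.8 and 41.0 CPM in wild-type libraries, against 67.1, 69.1 and 76.1 CPM in empty vector libraries. With all libraries neither passed, at log2 fold changes of -0.06 for Stat2 and -0.39 for Dtx3l. Without wild-type replicate 1, Dtx3l was lower by 0.79 (adjusted p = 2.11e-07) and Stat2 by 0.37 (adjusted p = 6.14e-04). That library was singled out after its values were seen. Leaving it out took the SE from 0.24 to 0.08 for Dtx3l and from 0.19 to 0.08 for Stat2. The small p-values rest on that choice, and a fall was not tested apart from it. Over all alternatives the adjusted p ran up to 0.509 for Dtx3l and 0.916 for Stat2. The partner Parp9, its relative Parp14 and Adar were also lower without wild-type replicate 1, by 0.18, 0.31 and 0.17 on the log2 scale. Over all libraries their log2 fold changes were 0.10, 0.14 and 0.15. Parp9 and Dtx3l overlap at their starts on chromosome 16, Adar overlaps Chrnb2 and Stat2 overlaps Apof. Ifi35 had a log2 fold change of 0.47 (adjusted p = 0.104). The untested Rtp4 had 2, 6 and 3 counts in mutant libraries and 26, 5 and 10 counts in wild-type libraries, against 3, 1 and 6 counts in empty vector libraries.

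The weight of wild-type replicate 1 in these values was counted over the members, as a description made after its values were seen. It was the highest of the 9 libraries in 25 of the 29 tested members, against 23.9% of all tested genes. Among the 25 members that passed the filter without wild-type reads it was the highest in 21. It was also the highest in 34 of all 38, which include the 9 with too few reads to test. The exceptions were Ifitm1, Ifitm2, Ifit2 and Ifih1. In 11 of the 29 it was at least 2-fold above the mean of the other 2 wild-type libraries, against 1.98% of all tested genes. Of the 25 that passed the filter without wild-type reads, 8 were. The largest ratios of tested members were 4.46 for Xaf1, 3.61 for Oas3 and 3.48 for Mx2. Over the tested members, the median log2 CPM minus empty vector was 0.01, 0.07 and 0.01 in mutant libraries and 0.94, 0.17 and 0.15 in wild-type libraries, against -0.05, -0.01 and 0.03 in empty vector libraries. Its Snai1 level, 425 CPM, was the lowest of the wild-type libraries.

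Leaving that library out, the same 13 members were higher with wild-type Snai1 against empty vector, beside 29.9% of 12619 tested genes. The number lower was 8, the 3 named above with Adar, Dtx3l, Parp14, Parp9 and Stat2, beside 28.8% of tested genes, and the median of the 29 was 0.12. Of the 25 members that passed the filter without wild-type reads, 9 were higher and 8 lower on that basis, with a median of 0.11. That library was singled out after its values were seen, and calls without it, here and below, rest on that choice. The log2 fold changes of the 13 higher members were each smaller than with all libraries. This had to follow, since wild-type replicate 1 was the highest library in each of them. Without empty vector replicate 1, the other library that stood apart, 12 members were higher and 3 lower, with a median of 0.49. The plot of fold changes with and without wild-type replicate 1 shows the shift gene by gene.

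**Figure D3:**
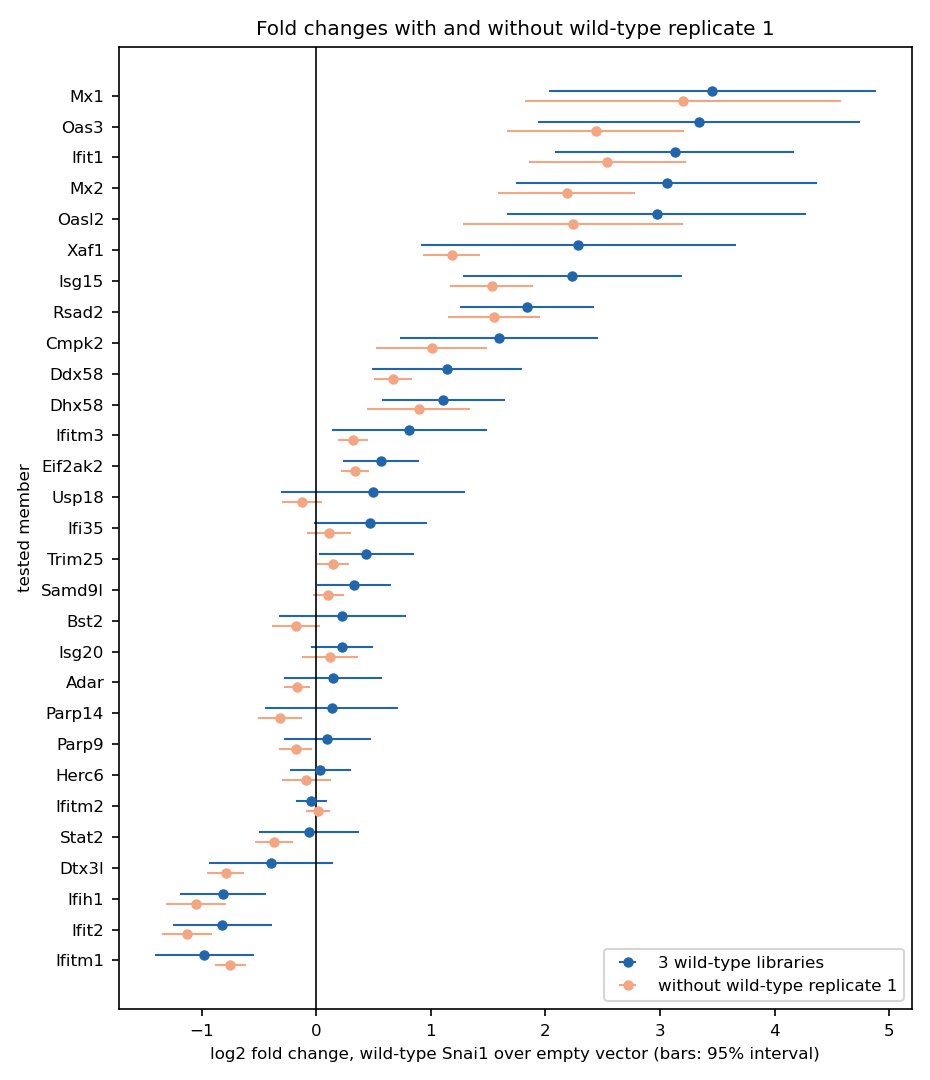
Log2 fold change of each tested member with wild-type Snai1 over empty vector (horizontal axis), from all 3 wild-type libraries and without wild-type replicate 1; points are estimates and bars 95% intervals from the edgeR fit. Xaf1 is at 2.29 with all libraries and at 1.18 without replicate 1, and Isg15 at 2.24 and 1.53; Parp14, Parp9, Adar, Usp18, Bst2, Herc6 and Ifitm2 change sign, and Ifitm1, Ifit2 and Ifih1 are below 0 either way.

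Mutant Snai1 gave no called member against empty vector, with a Snai1 transcript level that differed from that of wild-type Snai1 by -0.10 on the log2 scale (adjusted p = 0.479, SE 0.11). None of the 29 passed in edgeR, and 1, Mx1, had an unadjusted p under 0.05 (log2 fold change 1.90, adjusted p = 0.980, SE 0.78). DESeq2 and limma-voom also called 0, each with 1 member at an unadjusted p under 0.05. Over all tested genes 0.00801% were called, a single gene, Snai1 itself, and 4.83% had an unadjusted p under 0.05. Members' log2 fold changes ran from -0.40 to 1.90 with a median of -0.00. The intervals differed widely in width. For Ifitm2 the 95% interval ran from -0.10 to 0.18 and for Eif2ak2 from -0.39 to 0.28, while for Isg15 it ran from -0.75 to 1.31 and for Oas3 from -2.50 to 1.70. Mutant and empty vector libraries did not overlap for Xaf1, Isg15 and Ifitm3, all higher with the mutant by at most 0.28 on the log2 scale, and 17.6% of all tested genes had groups that did not overlap. Without wild-type replicate 1, which sets part of the shared spread, still 0 members were called, beside 0.491% of all tested genes, and 5 had an unadjusted p under 0.05, beside 13% of genes. These were Mx1, Mx2, Usp18, Ifitm3 and Stat2, with log2 fold changes of 1.90, 0.71, 0.17, 0.15 and -0.17.

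The direct contrast of mutant with wild-type Snai1 tests the difference between both proteins. In it 13 of 29 members were lower with the mutant and 3 were higher, beside 24.5% and 23.4% of all tested genes. Of the 25 that passed the filter without wild-type reads, 9 were lower and 3 higher. The median log2 fold change was -0.46 over the 29 and -0.33 over the 25. The lower members were Rsad2 (-1.95, adjusted p = 1.90e-04, SE 0.27), Ifit1 (-3.22, SE 0.47), Oas3 (-3.74, SE 0.66), Oasl2 (-2.38, SE 0.54), Mx2 (-2.34, SE 0.54), Mx1 (-1.56, SE 0.49), Xaf1 (-2.05, SE 0.58) and Isg15 (-1.96, SE 0.41). Cmpk2, Ddx58, Dhx58, Eif2ak2 and Samd9l were lower as well, by -1.65, -1.18, -1.11, -0.62 and -0.40. Ifitm1 was higher with the mutant by 0.94 (adjusted p = 0.00320, SE 0.19), Ifit2 by 0.92 (adjusted p = 0.00320, SE 0.19) and Ifih1 by 0.61 (adjusted p = 0.0131, SE 0.17). Ifitm3 did not pass here, at -0.66 (adjusted p = 0.0961). The adjusted p-values of the lower members not given above lay under 0.05, the highest being 0.0435 for Samd9l. The calls of 4 of these members were lost under an alternative: Ifih1 lost its call without wild-type replicate 3 or mutant replicate 1 (adjusted p up to 0.0575), Mx1 without mutant replicate 1 or 2 (up to 0.0928), and Xaf1 without mutant replicate 1 or 3 or with no filter on low counts (up to 0.0607). Samd9l lost its call without any 1 mutant or empty vector library, with no scaling beyond the total, with no filter, with limma-voom and with only the 6 libraries compared (up to 0.123). Both contrasts with wild-type Snai1 share its 3 libraries, replicate 1 included. Without replicate 1, 15 members were lower, with Ifitm3 and Trim25 added, and 9 were higher, with Adar, Bst2, Dtx3l, Parp9, Stat2 and Usp18 added, beside 29.7% and 28.2% of tested genes. Of the 25, 11 were lower and 9 higher, with a median of -0.04, while the median of the 29 was -0.17. The log2 fold changes of the lower members were smaller in size on that basis, at -1.25 for Isg15, -0.95 for Xaf1, -1.47 for Mx2, -1.06 for Cmpk2, -0.70 for Ddx58, -0.39 for Eif2ak2 and -0.18 for Samd9l. This too had to follow, since replicate 1 was the highest library in each of them.

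The pathway that feeds these genes was looked at in lists of its other parts. Of 10 interferon genes, 8 had 0 counts in all 9 libraries. Ifnb1 had 1 count in wild-type replicate 1 and 1 in empty vector replicate 3, and Ifng had 1 in empty vector replicate 2. Transcripts of these 10 genes were thus not detectable above the floor of 3 counts in any library. Other interferon genes were not looked at. Of 16 receptor and Jak-Stat genes, 15 were tested. With wild-type Snai1 against empty vector 5 of them were higher and 2 lower, beside 25.2% and 24.3% of all tested genes, with a median log2 fold change of 0.19, and without wild-type replicate 1 the counts were 7 and 3, beside 29.9% and 28.8% of all tested genes, and the median -0.05. Those with the smallest adjusted p were Ifngr2, a chain of the interferon gamma receptor (1.02, adjusted p = 3.78e-05, SE 0.11), the feedback inhibitor Socs1 (2.14, adjusted p = 7.38e-05, SE 0.26), the interleukin receptor chain Il10rb (0.53) and the phosphatase Ptpn11 (0.32). Irf9, which binds the response element and was chosen here for that role, was at 25.2, 26.6 and 25.2 CPM in mutant libraries and at 60.6, 26.4 and 23.6 CPM in wild-type libraries, against 25.4, 28.7 and 30.1 CPM in empty vector libraries, so that only replicate 1 stood above the controls, and it did not pass (adjusted p = 0.333). Ifnar1, a chain of the type I receptor, did not pass (log2 fold change -0.01, SE 0.08).

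Of 15 adaptors, kinases and other sensors, 13 were tested, 6 were higher and 1 was lower with wild-type Snai1, beside the same 25.2% and 24.3%, with a median log2 fold change of 0.08. Tlr7, an endosomal receptor of single-stranded RNA, was at 1.83, 1.55 and 1.94 CPM in mutant libraries and at 65.9, 30.5 and 32.0 CPM in wild-type libraries, against 1.75, 2.12 and 2.36 CPM in empty vector libraries. The log2 fold change of Tlr7 was 4.36 (adjusted p = 7.14e-06, SE 0.33), or 3.91 without wild-type replicate 1. The kinase Ikbke, the adaptor Ticam1 and the adaptor Myd88 rose by 1.78, 0.70 and 0.43. Irf7, the factor that amplifies interferon output, was under the filter, at most 0.451 CPM in any library. Of 80 other interferon-induced genes, 62 were tested, 21 were higher and 9 lower, beside 25.2% and 24.3% of all tested genes, with a median log2 fold change of 0.18. Without wild-type replicate 1, 63 were tested, 21 were higher and 16 lower, beside 29.9% and 28.8%, and the median was -0.03. The helicase-like coactivator Helz2 (0.90, adjusted p = 3.57e-06, SE 0.07), Shisa5 (0.64) and the nuclear body protein Sp100 (1.19) rose, while Tent5a fell by 0.99. Replicate 1 was the highest of the 9 libraries in 33 of these 62 genes, against 23.9% of all tested genes. It was the highest in 7 of the 15 receptor and Jak-Stat genes and in 5 of the 13 adaptors and kinases. Of 12 genes of RNA editing, decay and DNA clearance, 2 were higher and 3 lower, beside the same 25.2% and 24.3%. With mutant Snai1 against empty vector, 0 genes of any of these lists were called by edgeR.

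**Figure D4:**
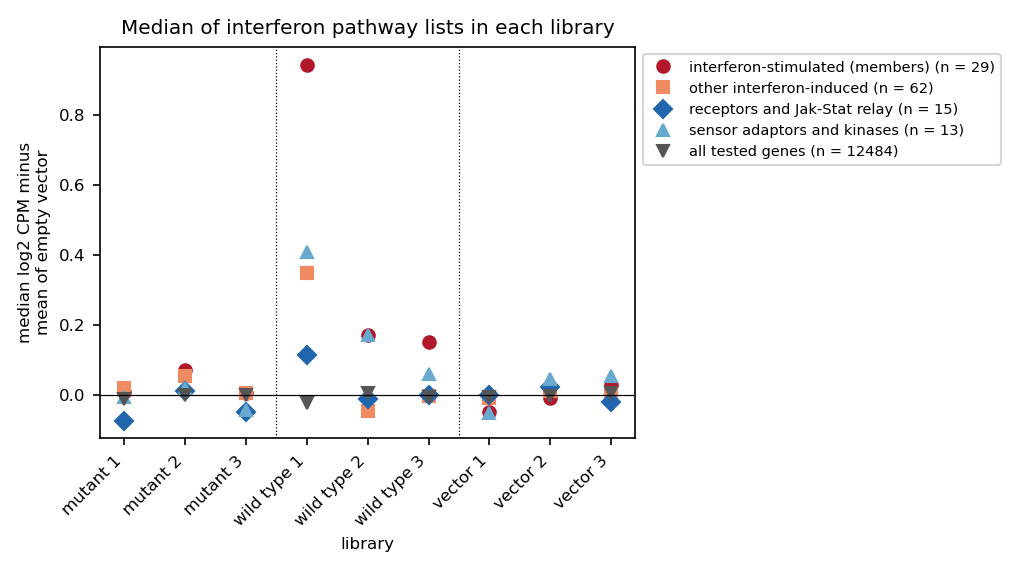
Median over the tested genes of each list of log2 CPM minus the mean of the empty vector libraries (vertical axis) in each library (horizontal axis), for the members, 3 other interferon pathway lists and all tested genes. Wild-type replicate 1 is highest for each pathway list, at 0.94 for the members, while all tested genes lie near 0 in every library.

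Other cell type markers moved in the same libraries. Markers that passed the filter only through wild-type reads were not set apart in these lists. For any such marker a higher call was close to fixed in advance. The same limit holds for the pathway lists above. Of 16 monocyte and macrophage markers, 11 were tested. With wild-type Snai1 against empty vector 9 of these markers were higher and 1 lower, beside 25.2% and 24.3% of all tested genes. Their summed level was 131 to 144 CPM in mutant libraries and 854, 1087 and 1424 CPM in wild-type libraries, against 116 to 129 CPM in empty vector libraries, with C1qa at 0 in all of them. The sum was lowest in wild-type replicate 1, but the median over the tested markers of log2 CPM minus empty vector was 3.05, 2.74 and 3.55 in the wild-type libraries, lowest in replicate 2. The neutrophil list summed to 73.6 to 80.4 CPM in mutant libraries and 117, 179 and 245 CPM in wild-type libraries, against 73.8 to 82.2 CPM in empty vector libraries. Here 3 of 6 tested markers were higher and 0 lower, beside the same 25.2% and 24.3%. Retnlg was at 0 throughout, and the median was 1.87, 1.68 and 2.29 in the wild-type libraries. Plasmacytoid dendritic cells are strong producers of interferon. Their 10 markers summed to 144 to 153 CPM in mutant libraries and 161, 127 and 136 CPM in wild-type libraries, against 146 to 158 CPM in empty vector libraries, mostly from Tcf4. Of 5 tested, 1 was higher and 3 lower, beside the same 25.2% and 24.3%, and Siglech, Ly6d and Klk1 were at 0 in all 9 libraries. Of the 12 progenitor markers 2 were higher and 6 lower, beside the same 25.2% and 24.3%. The lymphocyte and the fibroblast list each had 1 tested gene, lower in both cases. The part of these cell type changes in the members' values was not tested.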

How the data were processed

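The authors deposited raw counts per Entrez gene, made with featureCounts on mm10, per the submitters' processing notes, which also name edgeR 3.15.0 and limma 3.29.12; libraries were TruSeq stranded mRNA, per the labels' protocols. The aligner, annotation and strand setting are not given in the sources used here. Symbols came from RefSeq on GRCm38.p6, the assembly behind mm10 (25275 of 27179 identifiers). From these counts, edgeR 4.0.16 in R 4.3.3 tested all 9 libraries in 1 quasi-likelihood fit, after filterByExpr and TMM, with Benjamini-Hochberg adjustment over 12484 genes. SE is the log2 fold change divided by the root of the test's F value. Log2 CPM used a prior count of 2. Floors cover counting error only, since PCR copies are not independent molecules. The fit was tested on simulated data. Alternatives used DESeq2 1.42.0, limma 3.58.1, other scalings and filters, a replicate block and each library left out. The members and gene lists were chosen with earlier results of these data known. All members could be named, and of other lists up to 4 genes with the smallest adjusted p. Irf9, Ifnar1, Irf7, Ifnb1, Ifng and the single cell type markers were named for their role or level and not by that rule. Promoter sequences are from RefSeq, and 29 of 38 members matched. The values of 1 gene are not reported here.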

Additional observations from a re-analysis of the deposited data

How the results depend on the processing

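Of the 16 members called with wild-type Snai1 against empty vector, 15 kept their call under every alternative that gave a value, all but Ifitm3. Of the 16 called between mutant and wild-type Snai1, 12 did, the exceptions being Ifih1, Xaf1, Mx1 and Samd9l. With 1 library left out at a time, the members higher with wild-type Snai1 numbered 12 to 16 and those lower 3 to 8, with 8 reached without wild-type replicate 1, and the median log2 fold change was 0.12 to 0.68. For mutant against wild-type Snai1 the ranges were 2 to 9 higher, 10 to 17 lower, and -0.63 to -0.17 for the median. For mutant Snai1 against empty vector 0 were called in each, and the median ran from -0.040 to 0.045. The median for mutant against wild-type Snai1 was -0.40 with no scaling beyond the library total, -0.92 with no filter on low counts, -0.40 with a filter of 1 CPM in 3 libraries and -0.39 with limma-voom. For wild-type Snai1 against empty vector it was 0.81 with no filter, against 0.47. The unfiltered and stricter settings cover other numbers of members, and for the rest the cause was not tested. Without wild-type replicate 1 the sign turned for the first value of each pair that follows, the second being the other end of the range as single libraries were left out. With wild-type Snai1 against empty vector these were -0.31 and 0.33 for Parp14, -0.18 and 0.26 for Parp9, and -0.17 and 0.32 for Adar. Usp18, Bst2, Herc6 and Ifitm2, called in neither fit, also changed sign, to -0.12, -0.18, -0.09 and 0.02. With mutant against wild-type Snai1 they were 0.20 and -0.27 for Stat2, 0.21 and -0.22 for Parp9, 0.15 and -0.33 for Adar, 0.29 and -0.57 for Usp18, and 0.29 and -0.33 for Bst2, with 0.20 and -0.45 for Parp14, called in neither fit. With replicate numbers as a block, 12 members were higher and 3 lower with wild-type Snai1 against empty vector (median 0.40), 0 were called with mutant Snai1 against empty vector (median -0.01), and 3 were higher and 13 lower with mutant against wild-type Snai1 (median -0.43). Libraries of the same number correlated at -0.09 to 0.21 after removal of group means, with 2 of 9 pairs above 0.1 and 4 of 9 libraries closest to one of their own number, so the numbers were not taken to pair the samples. Depth limits the 9 untested members and Mx1, Oasl2, Oas3 and Ifit1, which had few reads outside wild-type libraries.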
